A study of Mus musculus with 14 samples.

Results

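The E11 type I pre-HSCs of the mouse aorta were described gene by gene, to ask what remained in them of the endothelial programme and what had been gained. Their members were all columns of the E11 single-cell table whose name carries the label for type I pre-HSC, 62 cells of 575 at E11 and of 1121 in all. The names number 3 sets of cells, with 8, 34 and 20 cells, and the labels do not say what a set is.

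The study sorted single cells from the aorta-gonad-mesonephros (AGM) region of pooled mouse embryos and counted transcripts by CEL-Seq with molecular tags, so that amplified copies are counted once. All cells compared below came from E11 embryos with over 40 somite pairs. Each deposited E11 cell holds 5000 transcripts, so a level below is a mean number of transcripts per cell out of 5000. The median number of genes seen per type I cell was 2257, between 2021 and 2504.

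Type I pre-HSCs were sorted from wild-type C57BL/6 embryos as c-kit+ Cdh5+ cells negative for CD45 by index sorting, and type II pre-HSCs (55 cells) as the CD45+ cells of the same gate. For both, the c-kit antibody had been injected into the aorta and the others added after dissociation. IAHC cells, from the intra-aortic haematopoietic clusters, came from wild-type C57BL/6 aortas into which the antibodies had been injected (201 cells sorted on c-kit and CD31, 89 on c-kit alone, all with a transcript of Gpr56, by which the study selected IAHC cells), and 46 c-kit+ YS cells came from the yolk sac of the same strain. The haemogenic endothelium (HE, Cdh5+ Gfi1+ Gfi1b- c-kit-, 46 cells), the cells in endothelial-to-haematopoietic transition (EHT, Cdh5+ Gfi1+ Gfi1b- c-kit+, 46 cells) and the non-haemogenic endothelium (non-HE, Cdh5+ Gfi1- Gfi1b- c-kit-, 30 cells) came from ICR embryos whose genotype is written Gfi+/tomato/ Gfi1b+/GFP, with 1 reporter allele at each locus. Against HE and EHT, the population cannot be told apart from strain, reporter alleles, sort, stage and sex of the embryos. The columns of HE and EHT are named late E11, those of non-HE late E11 or E11.5, and those of type I E11. The X-linked transcript Xist was seen in 32 of 46 HE and 19 of 46 EHT cells but in 5 of 62 type I cells. Kit, Cdh5, Ptprc, Gfi1 and Gfi1b were used to sort and are no findings, and Gfi1 in HE and EHT was read from reporter-allele embryos. HE, EHT, non-HE and YS were 1 sample each, type I and type II were both parts of 1 further sample, and IAHC joined 2 samples sorted in different ways. No group had replicate samples, so no test was made, and the intervals (95%) cover counting error only.

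The markers were seen in type I cells but did not single them out. All 6 markers of type I pre-HSCs (Mest, Nrp1, Procr, Tie1, Ikzf2 and Gfi1) were seen, with a summed level of 6.16 transcripts per cell (5.56 to 6.81) and of 8.88, 6.38 and 4.70 in sets 1, 2 and 3. The sum was 3.35 in type II, 4.41 in IAHC, 11.48 in EHT, 18 in non-HE and 22.3 in HE, set 2 of type II reached 4.7, and 60 of the 62 cells held at least 1 marker. Each of the 6 genes was higher in type I than in type II and IAHC and lower than in EHT, and at least 2-fold over type II were Mest and Nrp1, while 0 were 2-fold over IAHC. Mest, an imprinted gene, was read at 4, 0.824 and 0.25 in the 3 sets, so that set 1 stood above the others. Without set 1 its type I level was 0.611, against 0.109 in type II. No cell number was shared between type I and type II sets of the same number, and no column was repeated.

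Blood stem cells of the embryo arise from endothelium in the wall of the dorsal aorta. A subset of flat, haemogenic cells rounds up, leaves the vessel lining and joins clusters that bud into the lumen, passing through precursors that do not yet repopulate an adult. Type I precursors carry VE-cadherin without CD45, the pan-leukocyte phosphatase, and are placed before the CD45-positive type II precursors.

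Genes were grouped by role in 20 lists, and 2 further lists were drawn from the populations at the ends of the series. The endothelial programme was the 429 genes at least 4-fold higher in non-HE than in YS, and 345 of them were read at 0.5 transcripts per cell or more in HE. The haematopoietic programme was the 142 genes at least 4-fold higher in YS than in non-HE. Neither list used a type I cell. Non-HE came from ICR reporter embryos and YS from C57BL/6, so what the lists hold cannot be told apart from strain and preparation.

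Promoters of genes from both ends of the change are shown first, because these genes open the accounts below. RefSeq promoters on build GRCm38.p6, 250 bases before to 50 after the start, were matched for 254 of the 345 endothelial genes and 106 of the 142 haematopoietic genes. On both strands they were searched for 4 core motifs, and matches are in capitals. The RUNX motif was TGTGGT, and the motif of ETS factors was GGAAGT. The GATA motif was AGATAA, and the motif of SOX factors was AACAAT. None lies within another, but the end letters of 2 motifs can coincide. Of all 32851 promoters, 16.8% held the RUNX letters, 23.8% the ETS letters, 11.2% the GATA letters and 10.7% the SOX letters. The 354 endothelial promoters held them in 10.7%, 14.4%, 5.93% and 6.21%, and the 69 promoters of the endothelial genes low in type I in 14.5%, 13%, 5.80% and 4.35%. The 39 promoters of the endothelial genes kept held them in 12.8%, 17.9%, 2.6% and 12.8%. All 129 haematopoietic promoters held them in 14.7%, 33.3%, 2.33% and 6.20%, and the 66 promoters of the haematopoietic genes gained in type I held them in 10.6%, 30.3%, 4.55% and 6.06%. A match describes the letters only. Tm4sf1 (chr3:57301939-57302238, minus strand) and Fbln5 (chr12:101819070-101819369, minus strand, 1 of 2 promoters) stand for genes nearly or wholly absent from type I cells. Igfbp4 (chr11:99040994-99041293, plus strand) and Eng (chr2:32646345-32646644, plus strand) stand for endothelial genes that were kept, and Myb (chr10:21160935-21161234, minus strand) and Ptpn6 (chr6:124738660-124738959, minus strand) for genes that were gained.
Tm4sf1: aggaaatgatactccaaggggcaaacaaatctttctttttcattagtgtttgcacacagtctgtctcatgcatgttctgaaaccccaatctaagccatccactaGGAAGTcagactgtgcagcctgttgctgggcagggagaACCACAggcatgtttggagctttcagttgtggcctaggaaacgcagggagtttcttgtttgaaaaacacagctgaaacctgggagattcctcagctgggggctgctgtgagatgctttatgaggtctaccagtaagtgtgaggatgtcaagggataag
Fbln5: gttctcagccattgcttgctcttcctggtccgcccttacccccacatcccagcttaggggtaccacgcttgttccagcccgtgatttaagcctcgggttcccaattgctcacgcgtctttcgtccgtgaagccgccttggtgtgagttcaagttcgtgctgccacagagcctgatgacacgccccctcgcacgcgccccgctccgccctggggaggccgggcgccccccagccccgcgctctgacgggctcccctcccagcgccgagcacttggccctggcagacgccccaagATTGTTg
Igfbp4: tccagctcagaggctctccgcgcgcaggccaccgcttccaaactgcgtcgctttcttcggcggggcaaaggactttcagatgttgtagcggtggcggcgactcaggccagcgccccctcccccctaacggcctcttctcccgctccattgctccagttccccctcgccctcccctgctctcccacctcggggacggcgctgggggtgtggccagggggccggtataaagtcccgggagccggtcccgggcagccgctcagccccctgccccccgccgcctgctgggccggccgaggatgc
Eng: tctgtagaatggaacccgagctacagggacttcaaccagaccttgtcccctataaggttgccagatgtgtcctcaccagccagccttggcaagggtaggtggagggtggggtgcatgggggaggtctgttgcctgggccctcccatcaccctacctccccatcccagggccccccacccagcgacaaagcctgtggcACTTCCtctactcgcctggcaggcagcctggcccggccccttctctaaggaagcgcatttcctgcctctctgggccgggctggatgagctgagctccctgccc
Myb: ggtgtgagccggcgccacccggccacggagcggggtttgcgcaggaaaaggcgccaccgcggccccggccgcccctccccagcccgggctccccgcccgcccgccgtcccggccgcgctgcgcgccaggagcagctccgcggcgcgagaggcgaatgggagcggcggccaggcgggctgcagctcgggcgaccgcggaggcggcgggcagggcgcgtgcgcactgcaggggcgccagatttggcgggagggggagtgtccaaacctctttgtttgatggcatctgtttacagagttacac
Ptpn6: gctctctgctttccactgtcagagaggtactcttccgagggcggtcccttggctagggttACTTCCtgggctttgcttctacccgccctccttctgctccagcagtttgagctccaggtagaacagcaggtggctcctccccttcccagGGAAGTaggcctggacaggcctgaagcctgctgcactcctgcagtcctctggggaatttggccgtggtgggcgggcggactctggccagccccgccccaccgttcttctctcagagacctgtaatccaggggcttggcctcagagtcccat

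Most of the endothelial programme was still read in type I cells, at a low level. Over the 345 genes the median type I level was 20.3% of HE (quartiles 10.49 and 34.9), beside 72.2% over all 2159 genes read in HE. In the 3 sets the median was 23.5%, 22.5% and 12.5%, so set 3 was the lowest. Type I kept 39 of the 345 genes (11.3%) at 50% of HE or more, where 67.1% of all genes were kept. Without set 2 the share kept was 6.96%, and with HE scaled by the median ratio it was 7.54%. Another 225 (65.2%) lay between 10% and 50%, against 27.7% of all genes, and 81 (23.5%) lay under 10%, against 5.23%. Among the sets, 84, 56 and 23 genes were kept. Summed over all 429 genes, the programme took 227 transcripts of a type I cell, 245, 255 and 171 by set, where HE held 811 and EHT 380. Type I cells thus held 4.54% of their transcripts in the 429 genes.

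The type I level lay between EHT and type II for most of these genes. Of the 429, 367 were higher in EHT than in type I and 344 were higher in type I than in type II. The median percent of HE was 43.8 in EHT, 12.5 in type II and 5.52 in YS. IAHC cells, sorted without a CD45 gate, sat close to type I at 17.4%, and 271 of the 429 genes were higher in type I than in IAHC.

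**Figure D1:**
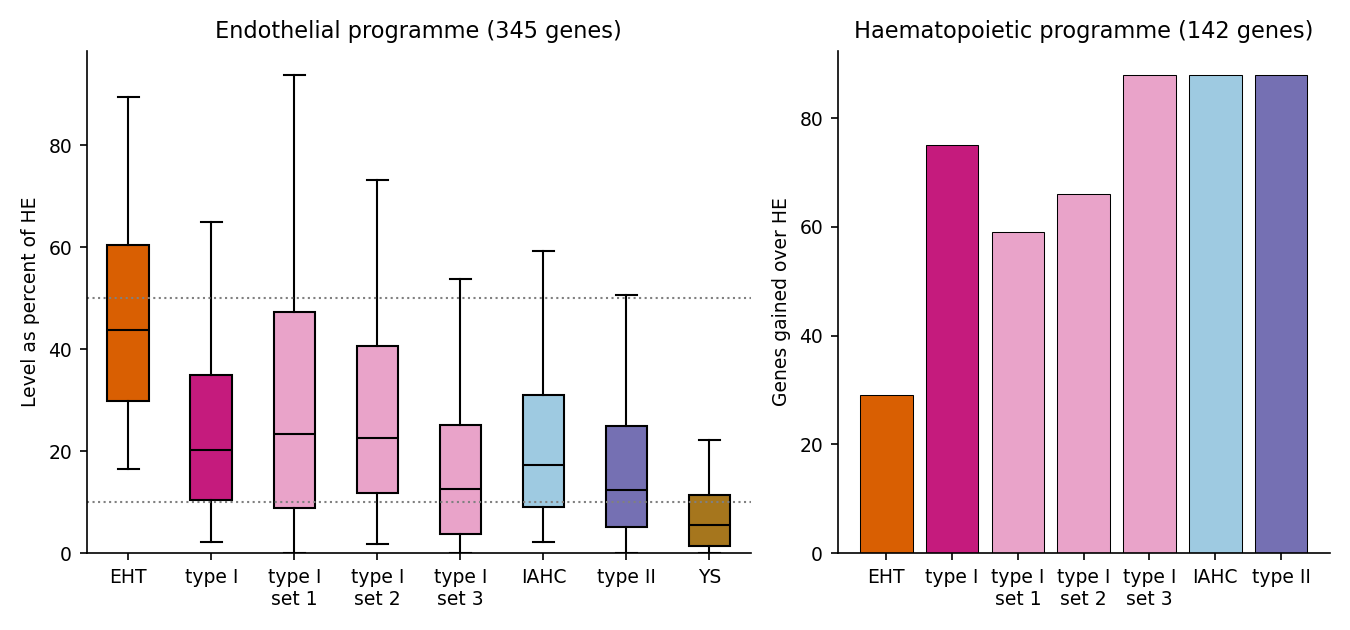
Left, level of the 345 endothelial genes as percent of HE for EHT, type I, its 3 sets, IAHC, type II and YS (line, median; box, quartiles; whiskers, 5th to 95th percentile), and right, number of the 142 haematopoietic genes gained over HE. Type I had a median of 20.3% of HE and 75 gained genes, and set 3 was lowest on the left at 12.5% and highest of the sets on the right at 88.

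Among the 97 programme genes at 2 transcripts per cell or more in HE, a secreted binding protein and a surface receptor kept the largest share of their HE level. Igfbp4, a binding protein of insulin-like growth factors, was highest in share. It was read at 3.88, 4.88 and 4.25 transcripts per cell in the 3 sets and at 5.78 in HE, which put type I at 78.7% of HE (66.3 to 93.4). Eng, the TGF-beta co-receptor endoglin, was read at 2.38, 1.5 and 1.2 in the sets and at 2.22 in HE, which made 69.1% (51.7 to 92.3). Eng was the only junction or surface gene at least 2-fold higher in type I than in EHT, where it was read at 0.609 (2.52-fold, 1.64 to 3.99). The next 8 were Mdk (65%), Txnip (63%), Rab11a (57.7%), Trim47 (56.9%), the collagen chaperone Serpinh1 (55.3%), the G protein subunit Gnas (54.0%), Rgs2 (54.0%) and Jun (53.3%). Igfbp4 and Eng transcripts lay in the same cell in 43 of 62 type I cells. Igfbp4 was seen in 61 of the 62 and Eng in 43, so these counts nearly fixed the overlap. The pair was seen in 38 of 55 type II and 40 of 46 HE cells too.

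At the other end were 10 genes under 4% of HE. P4ha3, a collagen prolyl hydroxylase, and Fbln5, an elastic-fibre protein, were seen in 0 of 62 type I cells, which allows 1.97% and 1.90% of HE. HE read them at 2.46 and 2.54 transcripts per cell, so against a floor of 3 counts over the cells of the population at 0, used for all such genes, they were at least 50.8-fold and 52.6-fold lower in type I. Such a bound leaves out the counting error of the other population. Tm4sf1, a tetraspanin-like protein of endothelium, had 1 transcript in 62 cells and lay at 0.476% of HE (0.0120 to 2.69). Above these came Jag1 (1.2%), Pcsk5 (1.5%), Sox18 (1.8%), elastin (Eln, 2.38%), Epas1 (2.69%), Sox17 (2.84%) and Ltbp4 (3.64%). Jag1 is a Notch ligand, and Sox18, Epas1 and Sox17 are transcription factors.

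Against HE, type I cells were at least 2-fold higher for 362 genes and lower for 624 of 2659 measured (13.6% and 23.5%), that is, read at 0.5 or more in either population and compared with 0.1 added to each level, with all 3 sets on the same side for 346 and 617. Abundant genes sat higher in type I than in HE by a median of 0.21 on the log2 scale. With HE scaled by that shift, which also raised the number of genes measured to 2966, 268 genes were higher and 866 lower. The share of higher genes among those called was 23.6% with scaling and 36.7% without. Medians of lists are given relative to the shift. A gene measured through 1 population only is by that higher there. Counts without a minimum are therefore also given for the endothelial, haematopoietic, cell cycle, imprinted and fetal stem cell lists against HE. Of all 12364 genes seen in either population, 44.7% were higher in type I than in HE and 55.3% lower.

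Endothelial junction and surface genes were nearly all lower in type I than in HE. Of 26 measured, 23, the sort gene Cdh5 among them, were lower and 0 higher, with a median log2 ratio of -2.22. Through HE alone 7 were measured, and without a minimum 28 of 30 seen were lower. The exceptions were Eng, Egfl7, a secreted factor of endothelium, and the sialomucin Cd34. Egfl7 was read at 1.88, 1.59 and 2.15 in the sets against 2.6 in HE, and Cd34 at 3.62, 3.65 and 4.55 against 7.70. Of the genes that were lower, the adhesion molecule Pecam1 was read at 1.25, 1.6 and 1.1 and at 4.57 in HE, a 3.25-fold difference (2.52 to 4.23). Esam, another junction protein, was read at 1.5, 1.38 and 0.95 and at 3.30 in HE (2.63-fold, 1.99 to 3.50). Receptors of the vessel were further down. The angiopoietin receptor Tek was read at 1.13, 0.5 and 0.350 and at 4.24 in HE (7.96-fold, 5.49 to 11.9). The VEGF receptor Kdr had 3 transcripts in all type I cells against 0.891 per cell in HE (18.4-fold lower, 5.88 to 93). Caveolin 1 (Cav1) had 2 transcripts against 1.87 per cell in HE (58-fold lower, 15.6 to 486). Pecam1 and Esam were thus closer to their HE level than Tek, Kdr and Cav1. These 5, and the other examples given from the lists by role below, were picked after their values were seen.

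Arterial and Notch genes had the lowest median of the 4 endothelial lists, -2.77 relative to the shift. Of 16 measured, 15 were lower in type I than in HE and 0 higher, and the exception was the receptor Notch1, read at 0.875, 0.412 and 0.400 in the sets and at 0.826 in HE. Of the 16, 14 were measured through HE alone, and without a minimum 19 of the 20 genes seen were lower. Jag1, with 2 transcripts in 62 cells against 2.67 per cell in HE, was 82.9-fold lower (22.5 to 692). Dll4, the other Notch ligand of arteries, was read at 0.125, 0.147 and 0.1 and at 1.43 in HE (11.1-fold lower, 5.33 to 26.8). The Notch target Hey2 had 1 transcript against 1.46 per cell in HE. Notch1 was thus nearer to its HE level than these ligands and this target.

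Some arterial genes were read almost wholly in set 2. The gap junction gene Gja5 was read at 0, 0.971 and 0.05 in the sets, 33 of its 34 transcripts in set 2, and Gja4 at 0, 0.912 and 0.05, 31 of its 32. The ephrin Efnb2 was read at 0, 0.5 and 0.05, and the flow-responsive factor Klf2 at 0, 1.06 and 0. Without set 2 Gja5, Gja4 and Efnb2 each stood at 0.0357 and Klf2 at 0 in type I. Gja5 (0.0727), Gja4 (0.0545) and Klf2 (0.218) in type II were therefore exceeded in set 2 only. Within set 2, Gja5 was seen in 12 of 34 cells and Gja4 in 12, and 9 type I cells held both. The summed list stood at 2.8, 5.97 and 1.75 in the sets, 46.7 in HE and 13.3 in EHT.

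**Figure D2:**
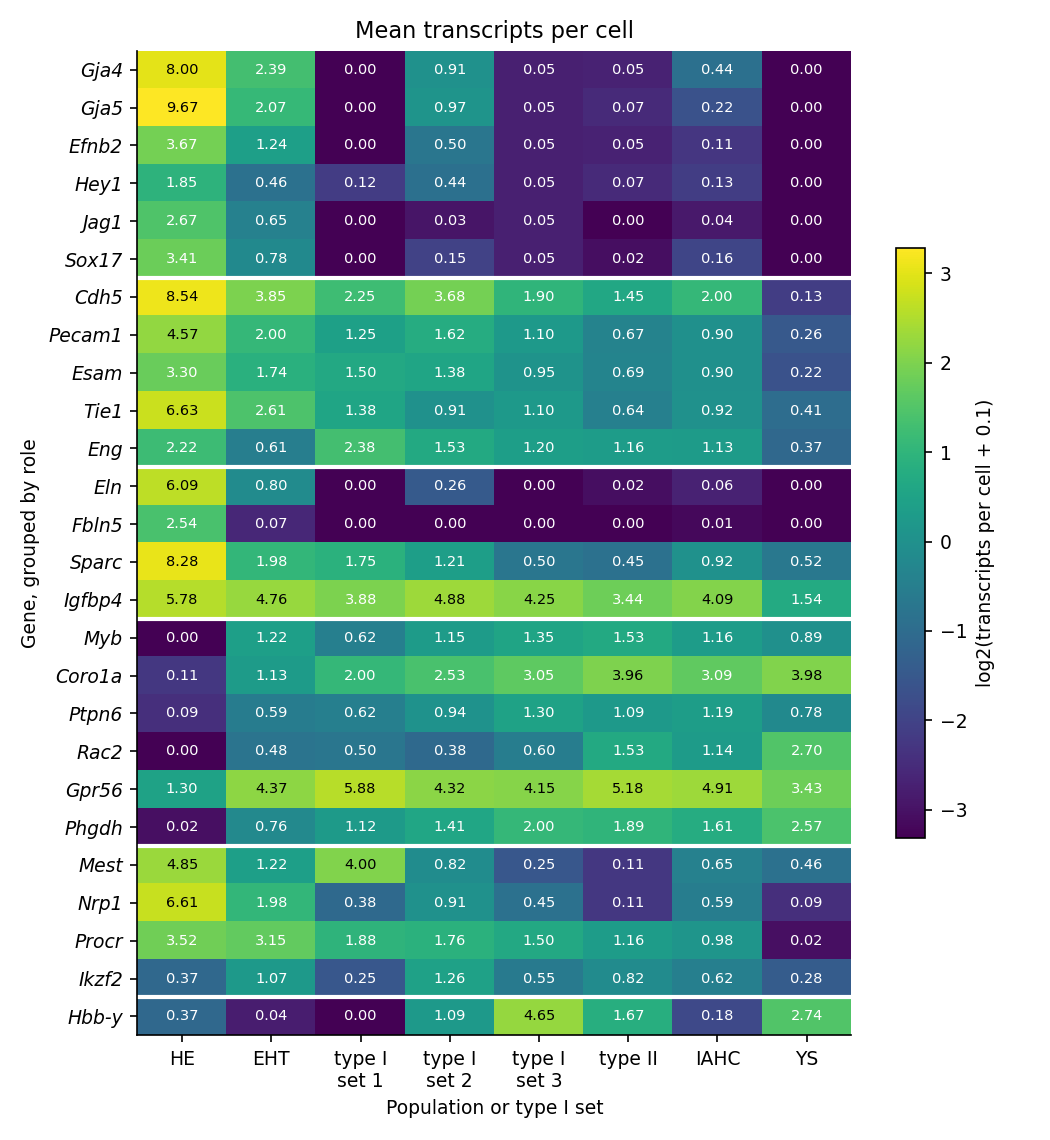
Heat map of 26 genes of both programmes in HE, EHT, type I by set, type II, IAHC and YS. Colour gives the log2 of the mean transcripts per cell with a pseudocount. Gja4, Gja5 and Efnb2 are read in set 2 of type I and are at or near 0 in sets 1 and 3. Igfbp4 and Coro1a are read in all 3 sets.

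Most transcription factors of endothelium were lower. Of 17 measured, 13 were lower in type I than in HE and 0 higher, with a median of -2.43. Through HE alone 9 were measured, and without a minimum 16 of 19 seen were lower. The SOXF factors were nearly gone. Sox18 was read at 0.125, 0.0882 and 0.05 in the sets and at 4.39 in HE (54.5-fold lower, 23.0 to 170), and Sox17 at 0, 0.147 and 0.05 against 3.41 (35.3-fold lower, 15.8 to 97.6). Sox7 was read at 0.125, 0.265 and 0.05 and at 2.11 in HE (11.9-fold lower, 6.36 to 24.6). The hypoxia factor Epas1 was read at 0, 0.235 and 0.150 against 6.59 (37.1-fold lower, 20.5 to 75.2). The factors not called were Fli1, Tal1, Hhex and Ets2, while Ets1 and Elk3, ETS factors as Fli1 and Ets2 are, were lower. Fli1 was read at 0.750, 0.794 and 0.850 and at 0.739 in HE. Tal1 was read at 0.375, 0.618 and 0.5 and at 0.652 in HE, and Hhex at 0.375, 0.794 and 0.900 and at 0.891.

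Matrix genes were lower too, with 15 of 16 measured lower in type I than in HE, 0 higher, and a median of -2.59. Through HE alone 8 were measured, and without a minimum 20 of 21 seen were lower. Elastin was read at 0, 0.265 and 0 in the sets and at 6.09 in HE (41.9-fold lower, 21.8 to 92.7). Mgp, an inhibitor of calcification, was at 0 in type I and at 1 in HE. Of the 15, Col18a1 and Fn1 had the smallest differences. The collagen chain Col18a1 was read at 3.62, 4.26 and 2.40 and at 8.20 in HE (2.29-fold lower, 1.93 to 2.7), and fibronectin (Fn1) at 2.62, 6.09 and 2.7 against 14.2 (3.14-fold lower, 2.72 to 3.62). Fn1 in set 2 was the highest of the sets. Igfbp4 was the exception, lower by less than 2-fold. Outside these lists, the rule for named genes gave Fbln2, another fibulin, at 112-fold lower (19.53 to 4471) with 1 transcript in type I.

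Part of the haematopoietic programme was gained. Type I cells had gained 75 of the 142 genes (52.8%), that is, read them at 0.5 or more and at least 2-fold over HE. Of the 142, 82 were read at 0.5 or more in type I. Of all 1817 genes so read, 19.9% were at least 2-fold over HE. All 3 sets were above HE for 71 of the 75, and sets 1, 2 and 3 taken alone had gained 59, 66 and 88. A further 60 genes lay under 0.5 transcripts per cell in type I and 7 were under 2-fold. The summed programme was 143 transcripts per cell in type I (121, 130 and 174 by set), against 37.7 in HE, 88.5 in EHT, 162 in type II, 158 in IAHC and 230 in YS. The median type I level was 57.2% of YS.

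EHT cells had gained 29 of the 142, and 26 genes had been gained in both. Of all 142 genes, 113 were higher in type I than in EHT and 28 were higher in EHT. Type II and IAHC had gained 88 each, as set 3 of type I had alone. Of the 75, 14 were already at or above their YS level. The 3 embryonic globins are among the 75, and without globins 51.8% of the programme was gained.

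The genes named as higher than in HE included enzymes, an actin-binding protein and a transcription factor. Phgdh, the first enzyme of serine synthesis, was read at 1.13, 1.4 and 2 in the sets and had 1 transcript in HE (72-fold, 12.6 to 2872). Coro1a, an actin-binding protein of blood cells, was read at 2, 2.53 and 3.05 against 0.109 in HE (24.2-fold, 10.2 to 75.5). The factor Myb was read at 0.625, 1.1 and 1.4 and in 0 of 46 HE cells, so it was at least 17.6-fold higher in type I. Each of the 3 genes was above HE in every set. Tkt, transketolase of the pentose phosphate pathway, was read at 3.50, 2.91 and 2.8 against 0.348 (8.44-fold, 5.06 to 15.1). The phosphatase Ptpn6 was read at 0.625, 0.941 and 1.3 against 0.0870 (11.7-fold, 4.34 to 44.2). Slc23a1, an ascorbate transporter, was 7.79-fold higher (4.07 to 16.7). The sort gene Kit was also in the list, as were Rpl34-ps1 and Rps15a-ps4, whose reads cannot be told apart from those of near-identical ribosomal genes. Both count among the 75 gained. In the ICR populations non-HE, HE and EHT, Rpl34-ps1 was read at 0.0333, 0.0217 and 0.0652 and Rps15a-ps4 at 0.667, 0.304 and 0.413. In type I, type II, IAHC and YS, all C57BL/6, they stood at 2.18, 2.36, 1.88 and 2.63 and at 2.95, 3.13, 3.18 and 4.24. The part of strain was not tested.

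Haematopoietic transcription factors were gained in part. Of 15 measured, 7 were higher in type I than in HE and 2 lower, with a median of 0.50. Through type I alone 8 were measured, and without a minimum 15 of 22 seen were higher. The genes called higher were Runx1, Myb, Sfpi1, Nfe2, Ikzf2, Mycn and the sort gene Gfi1. Nfe2, known from erythroid and platelet cells, was read at 0.625, 0.706 and 1.2 against 0.0435 in HE (19.66-fold, 5.18 to 167). The 2 lower were factors of both endothelium and blood. Lmo2 was read at 0.875, 0.882 and 0.850 against 2.6 in HE (3-fold lower, 2.16 to 4.21), and Gata2 at 0.875, 0.618 and 0.350 against 2.02 (3.58-fold lower, 2.40 to 5.44). Lyl1, a relative of Tal1, was read at 1.38, 1.03 and 1.1 against 0.630 and was not called.

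Surface and signalling genes of blood were gained in part. Of 13 measured, 9, the sort gene Kit among them, were higher in type I than in HE and 0 lower, with a median of 1.49. Through type I alone 7 were measured, and without a minimum 30 of 32 seen were higher. The actin-bundling protein Lcp1 was read at 0.875, 0.765 and 0.95 in the sets and had 3 transcripts in HE (12.9-fold, 4.16 to 64.4). Laptm5, a lysosomal protein of blood cells, was read at 1.88, 2.53 and 2.9 against 0.870 (2.95-fold, 2.07 to 4.28). Leukosialin (Spn, CD43) was read at 0.625, 0.618 and 0.95 against 0.109 (6.68-fold, 2.66 to 21.6). Cd48 and Cd52 were in 0 of 62 cells, and Ptprc, on whose product the cells had been gated as negative, had 7 transcripts, 0.113 per cell.

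Genes of DNA replication and mitosis were higher as well. Of 14 S phase genes measured, 10 were higher in type I than in HE and 0 lower (median 1.51), and all 8 of the 8 G2 and mitosis genes measured were higher (median 1.467). All 8 of the latter and 12 of the 14 were measured through type I alone, and without a minimum 20 of 20 S phase genes and 19 of 20 G2 and mitosis genes were higher. The helicase subunit Mcm3 was read at 1.5, 1.6 and 1.7 in the sets, at 0.739 in EHT and at 0.326 in HE. It was the S phase gene at least 2-fold over EHT (2.23-fold, 1.5 to 3.39). Summed S phase transcripts were 18, 17.5 and 17.4 by set, against 5.07 in HE and 13.7 in EHT. Type I did not stand above type II or IAHC in these lists. Without a minimum, 14 of 20 S phase genes were lower in type I than in type II and 6 higher. Of the G2 and mitosis genes 17 were lower and 3 higher, where 49.7% of all genes seen were lower. Against IAHC, 11 and 12 of 20 were lower and 9 and 8 higher, where 58.3% of all genes seen were lower.

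The difference from EHT was smaller. Of 2330 genes measured, 100 were at least 2-fold higher in type I and 237 lower (4.29% and 10.2%), with all 3 sets on the same side for 93 and 234. Without set 2 the counts were 176 and 363, and with a pseudocount of 0.5 they were 20 and 77. The comparisons with HE and EHT share the type I cells. Of the genes called higher, 65 were in both, 18% of those against HE and 65% of those against EHT, and of the genes lower 153 were, 24.5% and 64.6%.

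Most measured arterial and Notch genes were called lower than in EHT, and a smaller share of the other endothelial lists was called. Of 8 arterial and Notch genes measured, 7 were lower in type I, among them Jag1 (20.2-fold, 5.13 to 175) and Ltbp4, a latency protein of TGF-beta (5.39-fold, 2.43 to 13.5). Through EHT alone 6 of the 8 were measured, and without a minimum 18 of 20 seen were lower, where 57.1% of all genes seen were. Of 13 endothelial transcription factors 4 were lower, and all 3 SOXF genes were among them. Sox18, read at 1.2 in EHT and named by the rule, was 15.4-fold lower (6.21 to 49.1), Sox17 was 8.09-fold lower (3.37 to 23.5) and Sox7 5.88-fold lower (3.01 to 12.6). Of 21 junction and surface genes 6 were lower and Eng was higher, and of 11 matrix genes 3 were lower. Without a minimum, 16 of 19 endothelial transcription factors, 23 of 30 junction and surface genes and 19 of 21 matrix genes were lower. Through EHT alone 5, 2 and 3 of these lists were measured, and the difference between lists was not tested.

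Against EHT, few genes of the haematopoietic lists were called, where 4.29% of all genes were higher and 10.2% lower. Coro1a, at 1.13 in EHT, was 2.33-fold higher in type I (1.7 to 3.24) and the only one of 13 surface and signalling genes that was higher, while Cd47 and Ifitm3 were lower. Of 17 haematopoietic transcription factors 14 lay below equal levels, with a median of -0.569 relative to the shift, and 5 were measured through EHT alone. Without a minimum, 17 of 22 seen were lower, where 57.1% of all genes seen were. Of the surface and signalling genes, 15 of 34 seen were lower. Called higher were 0 of the 17 factors, and 2, Mycn and Bcl11a, were called lower. Mycn was read at 0.25, 0.882 and 0.350 in the sets and at 2.39 in EHT (3.80-fold lower, 2.62 to 5.63), and Bcl11a at 0.25, 0.471 and 0.5 against 1.17 (2.6-fold lower, 1.6 to 4.26). Apart from uncertain copies, Slc23a1 had the largest fold of the genes named as higher than in EHT (9.74-fold). Next were the arginine methyltransferase Prmt1 (4.51-fold, 2.43 to 9.13), Raly (4.24-fold) and Tkt (3.86-fold, 2.7 to 5.71). The valyl-tRNA synthetase Vars (3.6-fold), Ccdc85b (3.45-fold) and Ptpn18 (3.44-fold) followed. The uncertain copies Rpl34-ps1 (33.4-fold, 11.2 to 164), Rps15a-ps4 and Gm12191 were also named.

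The strongest differences below EHT moved with macrophage genes in EHT cells. Of 12 macrophage genes, 9 were seen in EHT with a summed level of 4.43, led by Ctss at 1.7, and 4 in type I with 0.774, led by Lyz2 at 0.532. Ctss, Cd68, C1qa, C1qb and C1qc were at 0 in type I. The sum was 0.130 in HE, 1.07 in type II and 0.983 in IAHC, and in EHT 3 cells held 4 or more of the genes. Spp1 (at least 62-fold lower in type I), Ctss (at least 34.1-fold), Lgals3 and Cxcl2 were named against all 46 EHT cells. Without the 3 cells, chosen after the data were seen, the EHT level of Spp1 was 0.186, of Ctss 0.0698, of Lgals3 0.0930 and of Cxcl2 0.0233. The counts against the other 43 EHT cells were 93 higher and 225 lower. Sox18, at 1.3, and the class I gene H2-D1, at 1.49, still stood above type I without them, as did the uncoupling protein Ucp2 at 0.628. The uncertain copy Gm1821, at 4.98 over all 46 EHT cells, was at 0 without the 3 cells, below its type I level of 0.306, so its direction turned. The X-linked transcript Xist and the uncertain copy Gm10548 complete the genes named as lower than in EHT.

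Type I cells and IAHC cells differed little. Of 2052 genes measured, 11 were at least 2-fold higher in type I and 9 lower (0.536% and 0.439%), with all 3 sets on the same side for 6 and 9. The counts were 17 and 41 without set 2, 19 and 22 without set 3, 18 and 17 against the IAHC cells sorted on c-kit and CD31, and 20 and 23 against those sorted on c-kit. With a pseudocount of 0.5 they were 5 and 1. Slc23a1 was read at 2.38, 1.03 and 2.55 in the sets and was 5.01-fold higher than in IAHC (3.77 to 6.67). It was not called against type II, so its level does not set type I apart from type II. Churc1 (2.78-fold) and the uncertain gene model Gm12504 (3.55-fold) were the other genes named as higher. The histone gene Hist1h2ao was 8.49-fold lower (4.92 to 16.1), and Cmtm7 (3.66-fold), the AP-1 factor Jund (3.44-fold) and Lgals1 (2.86-fold) were lower too. Rac2, a GTPase of blood cells, was read at 0.5, 0.382 and 0.6 in the sets, at 1.14 in IAHC and at 1.5 in type II. It was 2.43-fold lower than in IAHC (1.66 to 3.69) and 3.27-fold lower than in type II (2.12 to 5.17).

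Type II, the CD45+ side of the same gate, differed by few genes, with endothelial genes on the type I side. Of 2061 genes measured, 43 were at least 2-fold apart (2.09%), 23 higher in type I and 20 lower, with all 3 sets on the same side for 18 and 20. With ratios taken within sets of the same number, 24 were higher and 37 lower. Without set 3, 60 were higher, without set 2, 53 were lower, and with a pseudocount of 0.5 only 2 were higher and 1 lower. Ramp2, the adrenomedullin co-receptor of endothelium, was read at 1.75, 1.94 and 1.25 in type I sets and at 0.800, 0.360 and 0.200 in type II sets (4.44-fold, 2.76 to 7.46). The tight junction gene Cldn5 was read at 1.13, 1.32 and 1.2 against 0.900, 0.280 and 0.350 (2.97-fold, 1.8 to 4.96). Fstl1, a secreted glycoprotein, was read at 2.12, 2.41 and 1.2 against 0.6, 0.840 and 0.700 (2.64-fold, 1.8 to 3.86). In each of the 3 genes every type I set lay above every type II set. Sparc (2.31-fold), Pdlim1 (2.8-fold), Art4 (2.46-fold), Tgm2 (2.23-fold), Mest (9.61-fold, 4.2 to 27.1) and the uncertain model Gm17821 (2.44-fold) were also named as higher. By list, 4 of 20 junction and surface genes, 3 of 8 matrix genes and 2 of 8 endothelial transcription factors (Id3 and Klf2) were higher. Through type I alone 7, 2 and 5 of them were measured. Without a minimum, 25 of 30, 17 of 19 and 16 of 19 seen were higher, where 50.3% of all genes seen were. Klf2 was read at 0, 1.06 and 0 in the type I sets, so without set 2 its direction turned. A junction or surface gene, Eltd1 (2.74-fold, 1.66 to 4.67), was lower. The smooth muscle gene Acta2 was higher too, and the sum of smooth muscle genes was 1.2 in type I and 0.291 in type II. Of 17 haematopoietic surface and signalling genes 0 were higher and Rac2, Lst1 and Ctla2a were lower. Through type II alone 4 were measured, and without a minimum 27 of 33 seen were lower. The motor protein Kif11 was also lower in type I (3.08-fold, 1.94 to 5.03).

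**Figure D3:**
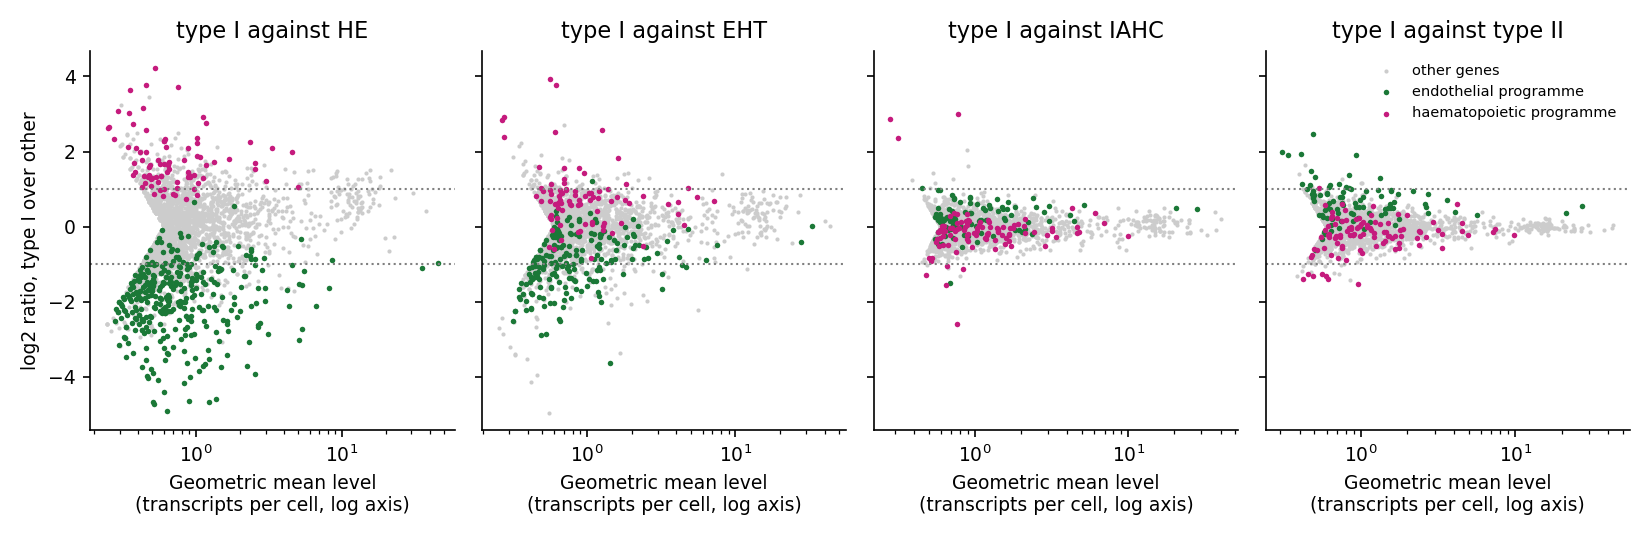
Log2 ratio of the type I level over HE, EHT, IAHC and type II (vertical axis) against the geometric mean level in transcripts per cell (horizontal axis, log scale). Each panel has 1 point per gene measured in that comparison and dotted lines at 2-fold. Those of the 345 endothelial genes that were measured are in green, and those of the 142 haematopoietic genes in magenta. Both groups lie apart from the other genes against HE, where 362 genes were higher and 624 lower, and close to equal levels against IAHC, where 11 and 9 were.

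Both programmes were carried by the same cells. A type I cell held between 52 and 611 transcripts of the endothelial programme, with a median of 210, and between 69 and 211 of the haematopoietic programme, with a median of 141. For 61 of 62 cells the endothelial count was below the lowest HE cell, and for 61 the haematopoietic count was above the highest. The median ratio of endothelial to haematopoietic transcripts was 1.5 in type I, 25.2 in HE, 3.43 in EHT, 1.16 in IAHC, 0.944 in type II and 0.178 in YS. Across the 62 cells, which all share a depth of 5000 transcripts, the counts of the programmes were correlated at -0.708, and at -0.676, -0.782 and -0.425 within sets 1, 2 and 3. Cells with more endothelial transcripts thus held fewer haematopoietic ones, least so in set 3. By rank the correlation was -0.905, -0.673 and -0.312 within the sets. It was not particular to type I, at -0.717 in type II, -0.699 in IAHC and -0.883 in EHT without ranks. Igfbp4 and Coro1a were seen together in 51 of 62 type I cells, as in 51 of 55 type II, 243 of 290 IAHC and 27 of 46 EHT cells. In type I, Igfbp4 was seen in 61 cells and Coro1a in 52, so these counts nearly fixed the overlap. Igfbp4 and Coro1a were also seen together in 27 of 46 YS and 4 of 46 HE cells, so the pair does not single out type I.

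By the correlation with the mean of each of 7 populations over 3391 genes, the cell itself left out, 47 of 62 cells (75.8%, 63.3 to 85.8) were closest to type I. The median correlations were near equal, 0.631 with type I, 0.629 with IAHC and 0.622 with type II. The first held for 4 of 8, 29 of 34 and 14 of 20 cells in the sets. Another 8 cells were closest to IAHC and 5 to type II. The remaining 2 cells stood at the ends. A set 2 cell with 611 endothelial and 69 haematopoietic transcripts was closest to HE, and a set 3 cell with 52 and 203 was closest to YS. Without these 2 cells, left out after the data were seen, 11.3% of the endothelial genes were kept and 53.5% of the haematopoietic genes gained.

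**Figure D4:**
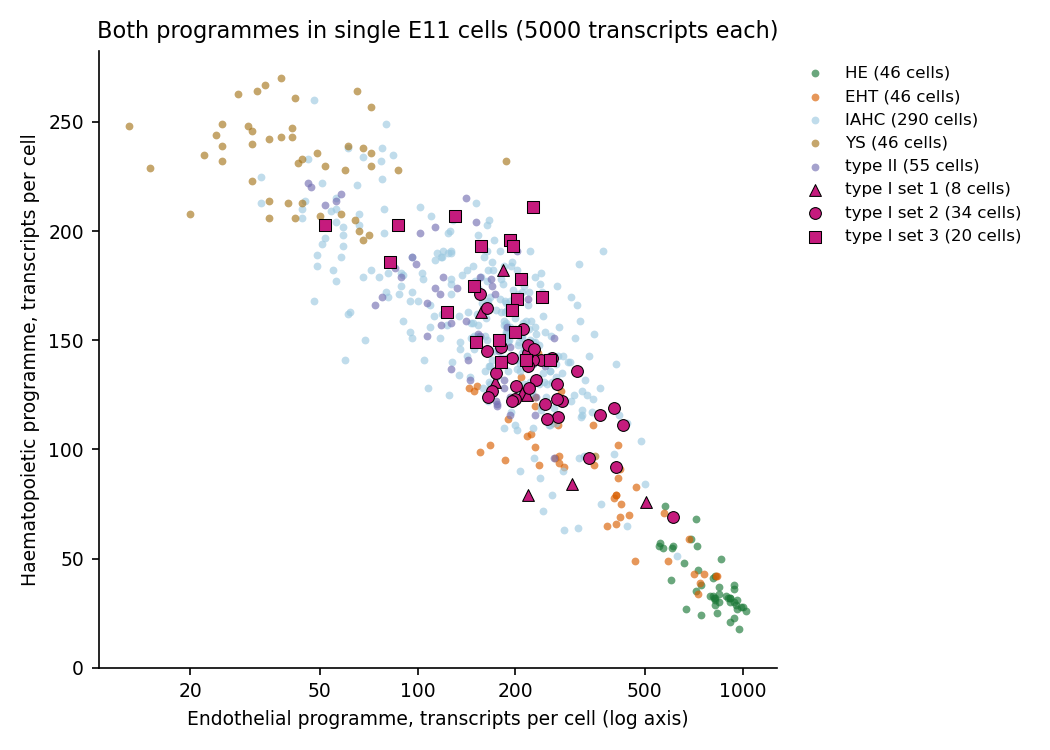
Endothelial transcripts per cell (horizontal axis, log scale) against haematopoietic transcripts per cell (vertical axis), with 1 point per cell, by population and with the 3 type I sets by marker shape. Type I cells run from 52 to 611 on the horizontal axis, and 61 of 62 lie to the left of every HE cell.

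The 3 sets were alike for most genes and differed in a few groups. Of 1817 genes read in type I, 1374 were within 2-fold across the sets and 47 were 4-fold or more apart, 13 of them highest in set 1, 20 in set 2 and 14 in set 3. Across 3391 genes, which are not independent replicates, set means were correlated at 0.829 (sets 1 and 2), 0.820 (1 and 3) and 0.903 (2 and 3). Sets of the same number in type I and type II were correlated at 0.801, 0.919 and 0.916. What a set shares is not given in the labels, and its part in these differences was not tested.

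Globins were the clearest difference between sets. The embryonic globin Hbb-y was read at 0, 1.09 and 4.65 in type I sets and at 0, 1.2 and 3.05 in type II sets, so the order of sets was the same in both. In type I, 9 of 14 erythroid genes were seen, led by Hbb-y at 2.1, with Gata1 and Alas2 at 0 and Klf1 at 1 transcript. The summed erythroid level was 0.125, 2.6 and 8.25 in type I sets, 1, 3.08 and 5.50 in type II sets, 4.13 in all of type I, 0.783 in HE, 0.826 in EHT, 0.990 in IAHC and 7 in YS. A globin transcript was seen in 47 of the 62 cells and in every cell of set 3. Hbb-y, Hbb-bh1 and Hba-x were 3 of the 11 genes higher than in IAHC. Whether the globin reads came from the cells themselves was not tested.

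Mesenchymal genes ran the other way. Of 14, 11 were seen in type I, led by Col3a1 at 0.242, with Pdgfrb, Dcn and Meox1 at 0. Their summed level was 2.38, 0.647 and 0 in the sets of type I, 1.6, 0.400 and 0.05 in those of type II, 1.89 in HE, 0.609 in EHT and 1.51 in IAHC. The part of such cells or their RNA in set 1 was not tested.

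Without replicate samples, differences between embryos or sorts of the same population were not measured, and set 1 rests on 8 cells. The counts of genes 2-fold apart depended on the pseudocount, and with 0.5 in place of 0.1 type I was higher than HE for 128 genes and lower for 290. At this depth a gene seen in 0 of 62 type I cells may still be present, up to 3 counts in 62 cells.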

How the data were processed

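Single cells of E11 mouse embryos were read by CEL-Seq, with no replicate samples: 1 sample each of HE, EHT, non-HE and YS, 1 that holds type I and type II, and 2 of IAHC with different sorts. The values are estimated counts: the authors mapped reads with BWA 0.6.2-r126 to mm10, estimated transcripts from molecular tags, down-sampled each E11 cell to 5000 and each E10 cell to 3000 transcripts and added 0.1 before the tables were deposited. The 0.1 was subtracted, which left whole transcripts, 310000 over the 62 type I cells. Populations and sets were read from the column names. The members and the gene lists were chosen with earlier results of these data known.

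Type I was compared with HE, EHT, IAHC and type II for genes at 0.5 transcripts per cell or more in either population, as log2 ratios with a pseudocount of 0.1, and called at 2-fold. Ratios of named genes are ratios of means without a pseudocount. The programme lists used 4-fold. Poisson and binomial intervals (95%) are exact and cover counting error only. Relative to the shift means after median-of-ratios scaling. Named genes were, per comparison, the 10 largest and 10 smallest ratios among those called, at 1 transcript per cell or more in the higher population and with all 3 sets on the same side; the 10 programme genes with the highest and the 10 with the lowest percent of HE, among those at 2 or more in HE; the markers; and members of the lists. Not every gene these rules name is reported. The lists were type I markers, endothelial junction and surface genes, arterial and Notch genes, endothelial transcription factors, matrix and matricellular genes, haematopoietic transcription factors, haematopoietic surface and signalling genes, imprinted genes, S phase genes, G2 and mitosis genes, fetal stem cell genes, sex of the embryo, and those of erythroid cells, megakaryocytes, granule progenitors, macrophages, mesenchyme, smooth muscle, primordial germ cells and epithelium. Scripts (Python 3.11.15, numpy 2.4.6, pandas 2.3.3, scipy 1.17.1, matplotlib 3.10.9) were tested on simulated data. Alternatives were another pseudocount, minimum, scaling, list, correlation, set weighting, ratios within sets, choice of IAHC cells, and each set left out. The table of whole clusters and the list of barcodes were left out, as neither holds values of type I cells.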

Additional observations from a re-analysis of the deposited data

How the results depend on the processing

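Of 97 alternative values of 13 summaries, 60 stayed the same and 37 moved, and 9 of the 97 were added after seeing the data. A count is the same within 1.5 times its value and a percent of genes or cells within its binomial interval. The median percent of HE is the same within 14.3 to 26.4, which is not a binomial interval. The summaries have no sign that could reverse, but the balance of higher and lower genes turned in some settings. More genes were lower than higher against IAHC at a minimum of 1, without set 2, without set 3 and with c-kit sorting alone, and against type II without set 2, within sets and with sets weighted equally (26 and 28). The counts below are genes higher and then lower in type I. A larger pseudocount draws ratios of scarce genes towards 1, and at 0.5 the counts were 128 and 290 against HE, 20 and 77 against EHT, 5 and 1 against IAHC, and 2 and 1 against type II. A minimum of 1 transcript per cell leaves fewer genes, and gave 182 and 306 against HE, 40 and 93 against EHT, 4 and 5 against IAHC, and 9 and 3 against type II. Leaving out each type I set in turn gave 349 to 429 and 576 to 750 against HE, 98 to 176 and 206 to 363 against EHT, 14 to 19 and 10 to 41 against IAHC, and 25 to 60 and 18 to 53 against type II. The endothelial genes kept were then 6.96% to 13.6% and those under 10% of HE 19.13% to 31.9%, the median was 18.3% to 23.8% of HE, and 45.8% to 59.2% of the haematopoietic genes were gained. Against the IAHC cells sorted on c-kit and CD31 alone the counts were 18 and 17, and against those sorted on c-kit alone 20 and 23. With programme lists drawn at 2-fold, 29.3% of endothelial genes were kept, 12.2% lay under 10% of HE, the median was 34.2% and 38.9% of haematopoietic genes were gained. Scaling to HE left 7.54% kept and 47.9% gained. By rank correlation 62.9% of the cells were closest to the type I mean. Beyond the construction of the alternatives, the cause of these moves was not tested.

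Lists drawn from E10 cells (302 and 192 genes) left 14.2% kept and 50.5% gained, which counted as the same, as did the counts with set means weighted equally and with 187 purified IAHC cells. The counts of genes 2-fold apart thus rest on the pseudocount and minimum, and those against EHT, IAHC and type II also on single sets, while in each setting more genes were lower than higher against HE and EHT. No comparison rests on a test. Type I and type II share set numbers, and the mean of their ratios within sets, added after seeing the data, gave 24 higher and 37 lower, of which 13 and 18 were among the 23 and 20 called over all cells. At 310000 type I transcripts, a gene in 0 cells may stand at up to 0.0484 transcripts per cell. Embryos, strains, reporter alleles and sorts were not replicated.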

Other observations

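Imprinted genes were in part lower in type I than in HE. Of 10 measured, 0 were higher and 5 were lower (Igf2, Mest, Meg3, Igf2r and Plagl1), with a median log2 ratio of -1.25 relative to the shift. Through HE alone 3 were measured, and without a minimum 15 of 18 seen were lower. The summed level was 57.2, 75.2 and 64.3 transcripts per cell in the 3 type I sets and 69.4 over all, against 144 in HE, 82.4 in EHT, 50.1 in type II and 51.3 in IAHC. H19, a non-coding RNA expressed from the maternal allele, was the most abundant, at 19.9, 34 and 35.4 in the sets and at 63.5 in HE. Meg3 and Plagl1 were also lower in type I than in EHT.

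Genes known from fetal blood stem cells were called in both directions, beside 13.6% of all genes higher than in HE and 23.5% lower. Of 16 measured, 2 were higher in type I than in HE (Mycn and Art4) and 5 were lower (Procr, Mecom, Fgd5, Esam and Sox17), with a median of -1.02. Without a minimum, 13 of 23 seen were higher and 10 lower, where 44.7% of all genes seen were higher. Whether the list differed from all genes was not tested. The summed level was 23.2 in type I, 34.2 in HE, 27.8 in EHT, 20.2 in type II and 22.2 in IAHC, and the chromatin protein gene Hmga2 was the most abundant in type I at 5.24. Art4, a surface ADP-ribosyltransferase, was read at 0.625, 1.71 and 1.2 in the type I sets and at 0.457 in HE (3.04-fold, 1.87 to 5.16).

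Marker genes of other cell types were read at the following levels in type I, and whether the transcripts came from other cells was not tested. Of 9 megakaryocyte genes 7 were seen, with a sum of 1.2, led by Itgb3 at 0.597 and with Gp1bb and Treml1 at 0, where HE held 0.283, EHT 0.739, type II 0.891 and IAHC 1.38. Of 7 genes of granule progenitors 5 were seen, with a sum of 4.65, led by the chaperone Calr at 3.79 and with Elane and Ctsg at 0, where HE held 3 and non-HE 4.57, all of it Calr, EHT 3.52, type II 4.7 and IAHC 4.02. Mpo was lower in type I than in type II, at 0.274 against 0.836 (3.05-fold, 1.72 to 5.68). The granule protease Prtn3 was read at 0.532 in type I and at 0 in HE. Of 6 smooth muscle genes 5 were seen, with a sum of 1.2, led by Acta2 at 0.661 and with Myh11 at 0, where HE held 1.04, EHT 1.3, type II 0.291 and IAHC 0.924. Primordial germ cells were represented by 1 Dazl transcript, from 1 of 6 genes, and epithelium by Krt18 at 0.694, from 1 of 5 genes, with Epcam, Krt8, Cdh1 and Cldn6 at 0. Of the 5 genes that mark the sex of the embryo, 1, Xist, was measured against HE, and it was lower in type I, as it was than in EHT. Xist was seen in 32 of 46 HE, 19 of 46 EHT and 5 of 62 type I cells, and Ddx3y in 6, 7 and 17.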
